A study of Homo sapiens with 6 samples.

Results

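Steroid receptors and the transcription factors of the luminal breast cell were examined in RNA-seq of MDA-MB-231, a human breast cancer cell line. The genes, chosen by name, are 9 of the 58302 in the count files: the nuclear receptors ESR1, PGR, NR3C1 and ESRRA, the prolactin receptor PRLR, and the factors GATA3, SPDEF, TFAP2A and TFAP2C. Libraries were made from 3 repeats of cells expressing a control shRNA and 3 repeats of cells expressing Smyca shRNA #1, which targets the lncRNA Smyca, so the knockdown rests on 1 hairpin. The question was which genes respond to depletion of this lncRNA. Neither drug nor hormone treatment is named in the labels for either group. The study grew the line in Dulbecco's modified Eagle's medium with fetal bovine serum and antibiotics. The hormone content of that serum is not given. The study calls them biological repeats, but neither it nor the labels say whether they were separate cultures, so the p-values measure the spread between these libraries.

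Steroid receptors are transcription factors that a lipid hormone binds and switches on. ESR1 (estrogen receptor alpha) and PGR (progesterone receptor) mark hormone-responsive luminal breast tumors, with PGR itself induced through ESR1. NR3C1, the glucocorticoid receptor, is used by most cell types. ESRRA is an orphan relative that binds no known hormone and drives genes of mitochondrial metabolism. GATA3 is required for luminal differentiation in the mammary gland, SPDEF is an ETS factor of secretory and luminal epithelium, and TFAP2A and TFAP2C are the AP-2 factors of breast epithelium. PRLR passes the prolactin signal through JAK2 to STAT5.

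Total counts were 14999307 to 16501085 per library, so that 3 counts, the limit which a count of 0 allows for counting error alone, came to 0.182 to 0.2 CPM (library counts scaled to a common total). The targeted gene, annotated as MIR23AHG, had 25, 19.5 and 22 normalized CPM (counts scaled by the library's effective total) in the control libraries and 10.5, 6.97 and 5.61 in the Smyca knockdown libraries, a log2 ratio of control over knockdown of 1.53 with an adjusted p of 0.111. Libraries 3 of both groups stood apart: Pearson's r of log2(CPM + 1) over 15068 genes was 0.991 between control libraries 1 and 2 but 0.956 and 0.965 with control library 3, and 0.991 between knockdown libraries 1 and 2 but 0.976 and 0.980 with knockdown library 3. The FPKM column deposited for control library 2 did not follow its own counts. It held 3357 genes with an FPKM above 0 at 0 counts, and the whole reads recovered from it correlated with the counts of control library 3 at 0.996 and with those of control library 2 at 0.965. Values from those reads, called recovered reads, are given beside several of the results.

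This line is known as mesenchymal, yet keratins of simple epithelium were far above the mesenchymal filament gene VIM, and markers of both states were present. All 9 luminal epithelial markers were tested, and KRT8, one of these keratins, averaged 4242 normalized CPM per kilobase over the 6 libraries, against 117 for VIM. In each library KRT8 was 16.5 to 76.0 times the level of VIM. The epithelial adhesion genes EPCAM and CDH1 averaged 237 and 67.9 per kilobase, and ZEB1, a repressor of CDH1, averaged 3.94. CDH1 and MUC1 were below VIM in all 6 libraries, and AGR2 and ERBB3 in 5 of 6. All 6 mesenchymal markers were tested too, and MSN, which codes for the cytoskeletal linker moesin, had 266 to 599 per kilobase against 207 to 295 for EPCAM. The cells are therefore called by their label only.

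Beside these epithelial markers, the hormone receptors that define a hormone-responsive luminal tumor were at or near 0. PGR (ENSG00000082175, chromosome 11, 101029624 to 101129813, minus strand, GRCh38) had 0 counts in all 6 libraries. PRLR (ENSG00000113494, chromosome 5, 35048756 to 35230487, minus strand) had 0 counts in all 6 libraries as well. ESR1 (ENSG00000091831, chromosome 6, 151656691 to 152129619, plus strand) had 0, 0 and 3 counts in the control and 0, 0 and 1 in the knockdown libraries, and the FPKM column of control library 2 held 1 read. A difference between the groups was thus not detectable at this depth for any of the 3, and none entered the test. SYNE1, which lies on the opposite strand and shares 7933 bases with ESR1, had 77 to 308 counts, with its highest values, 242 and 308, in the same libraries that held the ESR1 counts. The strand setting of the counting is not given in the sources used here, so these few counts may belong to either gene.

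Within the same receptor family (NR3), 2 of 9 genes passed the filter on low counts, NR3C1 and ESRRA. ESRRG, an orphan relative of ESRRA, had 0 counts in all libraries. ESR2, the beta form of the estrogen receptor, had 5, 4 and 8 counts in the control and 2, 0 and 13 in the knockdown libraries. NR3C2, the mineralocorticoid receptor, and ESRRB did not exceed 7 counts.

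**Figure D1:**
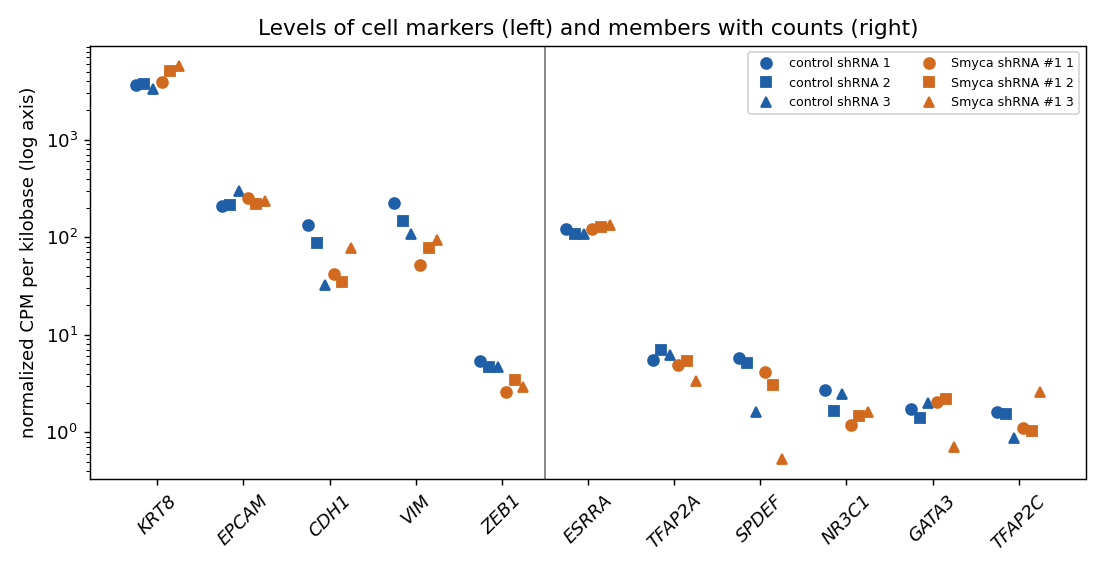
Normalized CPM per kilobase (vertical log axis) of 5 cell markers and 6 members in each of the 6 libraries, with control shRNA in blue and Smyca shRNA #1 in orange; each point is 1 library and the marker shape gives the repeat. ESRRA lies at 120.5 on average, while the other 5 members lie between 1.46 and 5.39, below VIM and EPCAM.

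Per kilobase, with the gene lengths implied by the authors' FPKM values, ESRRA had the highest level of the members at 120.5 ± 10.3 normalized CPM per kilobase (SD, n = 6). TFAP2A followed at 5.39 ± 1.26, which was 22.4 times lower, and the order held in all 6 libraries. SPDEF (3.36 ± 2.02), NR3C1 (1.86 ± 0.605), GATA3 (1.67 ± 0.550) and TFAP2C (1.46 ± 0.618) came next. Neighbors among these did not separate beyond their spread, since TFAP2A was above SPDEF in 5 of 6 libraries and each further pair kept its order in 4 of 6. With the union of annotated exons as the length, ESRRA stayed first and ESR1 last among members with counts, but TFAP2A fell below SPDEF. NR3C1 then fell below GATA3 (0.871) and TFAP2C (0.812), to the lowest level of the 6 tested members (0.504). The fold of ESRRA over TFAP2A was 58.6 with that length. Of all genes tested, 91.7% had a lower normalized CPM than ESRRA, and 18.4% to 32.6% a lower one than the other 5.

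The start regions of 3 receptors are shown, so that level and start-site sequence can be set side by side. They are ESRRA, the highest member, NR3C1, a low one, and PGR, which had 0 counts and no place in the order. RefSeq (GRCh38.p14) gave 28 windows, from 250 bases before to 50 after a start, for 8 of the 9 genes. The windows are written 5′ to 3′ on the strand of the gene, and capitals mark GC boxes (GGGCGG, the motif of Sp factors) and AP-2 motifs (GCCNNNGGC) on either strand, overlapping matches included. ESRRA has a single window, at chr11:64305274-64305573 on the plus strand.
ESRRA: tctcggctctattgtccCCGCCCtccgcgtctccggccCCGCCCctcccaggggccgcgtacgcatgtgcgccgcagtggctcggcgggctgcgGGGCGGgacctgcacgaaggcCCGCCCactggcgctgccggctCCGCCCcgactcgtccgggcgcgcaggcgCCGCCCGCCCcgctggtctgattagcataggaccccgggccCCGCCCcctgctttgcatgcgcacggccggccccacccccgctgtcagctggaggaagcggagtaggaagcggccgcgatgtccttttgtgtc
NR3C1 has 7 windows, and the one richest in CpG lies at chr5:143403637-143403936 on the minus strand.
NR3C1: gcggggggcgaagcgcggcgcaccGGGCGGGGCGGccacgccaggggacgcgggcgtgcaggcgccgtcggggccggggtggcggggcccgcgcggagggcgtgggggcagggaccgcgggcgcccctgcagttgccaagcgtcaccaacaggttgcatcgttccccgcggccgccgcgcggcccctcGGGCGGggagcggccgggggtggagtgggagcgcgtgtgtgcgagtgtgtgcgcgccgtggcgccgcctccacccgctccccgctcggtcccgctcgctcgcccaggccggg
The PGR window with the most GC boxes lies at chr11:101129014-101129313 on the minus strand.
PGR: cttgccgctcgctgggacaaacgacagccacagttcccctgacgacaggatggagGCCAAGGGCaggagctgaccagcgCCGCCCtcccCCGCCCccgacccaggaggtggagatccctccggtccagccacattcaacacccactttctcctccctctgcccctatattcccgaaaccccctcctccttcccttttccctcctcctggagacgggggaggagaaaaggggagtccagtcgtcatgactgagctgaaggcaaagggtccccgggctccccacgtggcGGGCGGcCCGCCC

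The ESRRA window held 8 GC boxes, which 0.812% of the 35116 windows in the table reach, and 39 CpG dinucleotides, more than 91.3% of windows. The NR3C1 window held 3 GC boxes and 51 CpG, more than 99.0% of windows, while the other NR3C1 windows ranged down to 0 CpG. The PGR window held 4 GC boxes, a number reached by 9.06% of windows, an AP-2 motif and 17 CpG, although PGR had 0 counts. PRLR, also at 0, had 4 and 9 CpG in its 2 windows. SPDEF had 8 CpG and none of the 7 motifs searched in its single window. A GC box occurred in 45% of all windows and an AP-2 motif in 23.2%. AP-2 motifs were found in windows of 2 of the 8 genes, PGR and GATA3. The half-site of the ERR receptors (TCAAGGTCA, 0.353% of all windows) was found in none of the 28 windows. The estrogen half-site (AGGTCA) was in 1 of them, the glucocorticoid half-site (AGAACA) in 2, the GATA motif (AGATAA) in 1 and the TATA box (TATAAA) in 4, against 13.8%, 14.8%, 10.3% and 11.5% of all windows. These matches describe letters only.

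In the comparison of control with Smyca knockdown, 0 of the 6 tested members were differentially expressed genes (DEGs, which by the study's criteria need a control over knockdown ratio of 1.5 or more, or of 0.66 or less, with an adjusted p below 0.05, here from edgeR's quasi-likelihood test), against 4 of 15075 genes or 0.0265% over all. DESeq2 also called 0 members. The study's own count over all genes, made with DESeq under the same limits, was far larger than 4. At an unadjusted p under 0.05 edgeR gave 1 member, NR3C1, and DESeq2 gave 0, and 19.2% of all genes passed that criterion in edgeR. The groups did not overlap for 3 of the 6, and for 24.8% of all genes. The median log2 ratio of the 6 was 0.25, and that of all genes tested was 0.036. The median of the 6 moved to 0.45 without knockdown library 2 and to 0.12 with the recovered reads of control library 2. In these bulk samples, fewer cells that express a gene and less RNA per cell cannot be told apart.

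NR3C1 (ENSG00000113580, chromosome 5, 143277931 to 143435512, minus strand) was lower in all knockdown libraries than in any control library. Its level was 6.79, 4.12 and 6.15 normalized CPM in the control and 2.98, 3.61 and 4.03 in the knockdown libraries. The groups lay close, with control library 2 next to knockdown library 3. Their means were 5.69 ± 1.39 and 3.54 ± 0.525 (SD, n = 3 each), a log2 ratio of 0.68 (SE 0.30, 95% interval 0.006 to 1.36). The unadjusted p was 0.048 and the adjusted p 0.256, so the difference did not pass the correction. A two-sided exact permutation test gave p = 0.1, the smallest that 3 against 3 allows. The FPKM column of control library 2 held 104 reads of NR3C1 in place of 67 counts, and with those reads the log2 ratio was 0.82 with an adjusted p of 0.133. Leaving out any library except control library 2 raised the unadjusted p to between 0.051 and 0.161.

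ESRRA (ENSG00000173153, chromosome 11, 64305497 to 64316743, plus strand) varied least among the members, with a coefficient of variation of 8.53% over the 6 libraries. It had 164, 147 and 148 normalized CPM in the control and 165, 174 and 182 in the knockdown libraries. Every knockdown library was above every control library, the nearest pair differing by less than 1 unit. The means were 153 ± 9.58 and 174 ± 8.62, the log2 ratio was -0.18 (SE 0.13) and the adjusted p was 0.483, with an exact permutation p of 0.1. The 95% interval of the ratio of control over knockdown, 0.714 to 1.09, lay inside the limits of 0.66 and 1.5 that define a DEG. TRMT112 shares 284 bases with ESRRA on the opposite strand and had 4396 to 6190 counts.

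**Figure D2:**
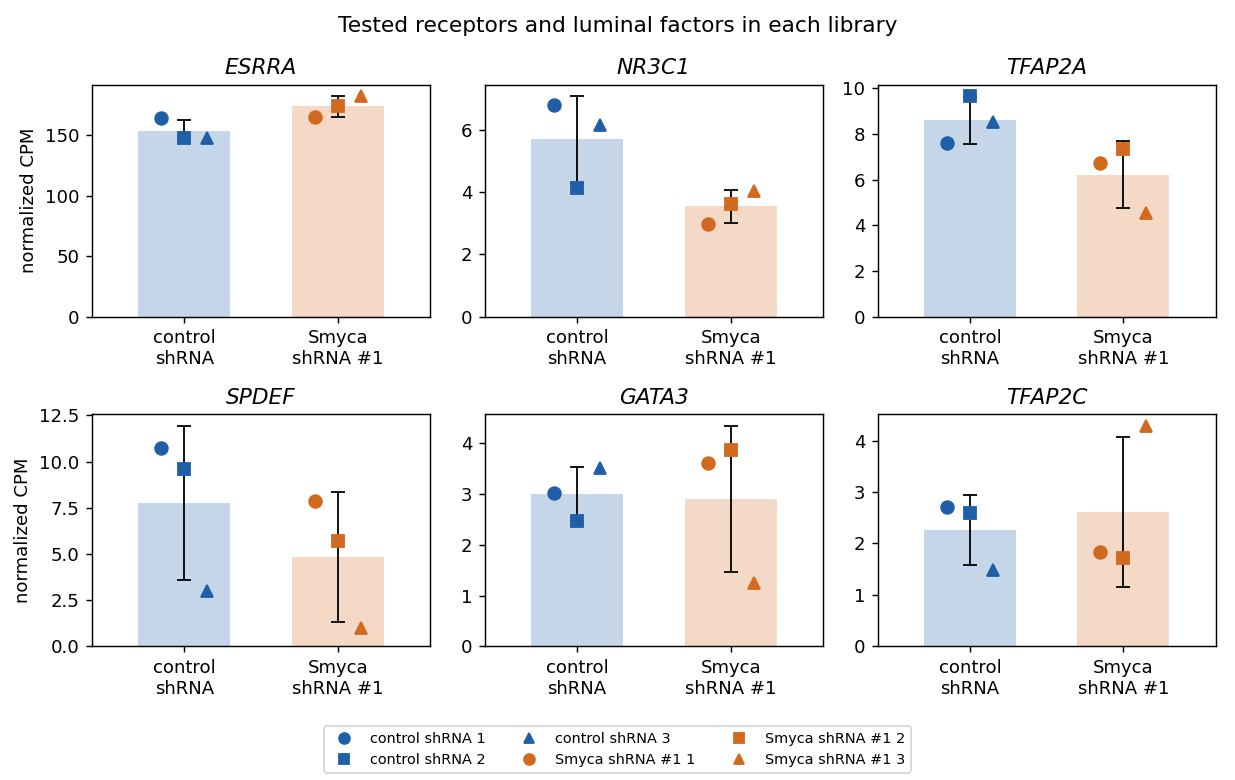
Normalized CPM (vertical axis, linear from 0) of the 6 tested members in the control shRNA (blue) and Smyca shRNA #1 (orange) libraries; bars are means, error bars the SD of 3 libraries, and the point shape gives the repeat. Groups do not overlap for ESRRA, NR3C1 and TFAP2A, whereas in SPDEF library 3 of each group lies below the other two.

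TFAP2A (ENSG00000137203, chromosome 6, 10393186 to 10419659, minus strand) had 7.59, 9.66 and 8.52 normalized CPM in the control and 6.73, 7.35 and 4.56 in the knockdown libraries. All control values were above all knockdown values, with control library 1 and knockdown library 2 nearly level. The log2 ratio was 0.47 (SE 0.26, 95% interval -0.14 to 1.07) with an adjusted p of 0.369 and an exact permutation p of 0.1. Without knockdown library 3 it was 0.28, and with the recovered reads of control library 2 it was 0.40. Its antisense gene TFAP2A-AS1, which overlaps 7107 bases, had 3 to 11 counts.

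TFAP2C (ENSG00000087510, chromosome 20, 56629306 to 56639283, plus strand) overlapped between the groups, at 2.72, 2.58 and 1.47 normalized CPM in the control and 1.84, 1.71 and 4.29 in the knockdown. Knockdown library 3 was the highest of all and control library 3 the lowest. The log2 ratio was -0.21 (SE 0.45, 95% interval -1.24 to 0.82, adjusted p = 0.825, exact permutation p = 0.8). With both of these libraries left out, a choice made after the values were seen, it turned to 0.57 with an adjusted p of 0.219.

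GATA3 (ENSG00000107485, chromosome 10, 8045378 to 8075198, plus strand) had 3.02, 2.46 and 3.52 normalized CPM in the control and 3.62, 3.86 and 1.25 in the knockdown libraries. Knockdown libraries 1 and 2 were the highest of the 6 and knockdown library 3 the lowest. The means, 3 ± 0.531 and 2.91 ± 1.44, gave a log2 ratio of 0.04 (SE 0.43, 95% interval -0.95 to 1.03, adjusted p = 0.966). With the 48 reads of the FPKM column in place of 40 counts in control library 2, it was 0.08. The sign of this value also depended on libraries 3, and it was -0.46 (adjusted p = 0.272) without both of them. GATA3-AS1, on the opposite strand, had at most 2 counts.

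SPDEF (ENSG00000124664, chromosome 6, 34537802 to 34556333, minus strand) differed more within each group than between them. It had 10.7, 9.60 and 3.01 normalized CPM in the control and 7.87, 5.70 and 0.990 in the knockdown libraries, a range of 10.8-fold. Library 3 was 0.296 of the mean of the other two in the control and 0.146 in the knockdown. The log2 ratio was 0.68 (SE 0.68, 95% interval -0.87 to 2.23, adjusted p = 0.609, exact permutation p = 0.4). The interval holds a 4.69-fold higher level in the control as well as no difference. The FPKM column of control library 2 held 49 reads of SPDEF in place of 156 counts, which put that library beside control library 3, and the log2 ratio was then 0.17. Leaving out both libraries 3 gave 0.57 with an unadjusted p of 0.035 and an adjusted p of 0.103.

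**Figure D3:**
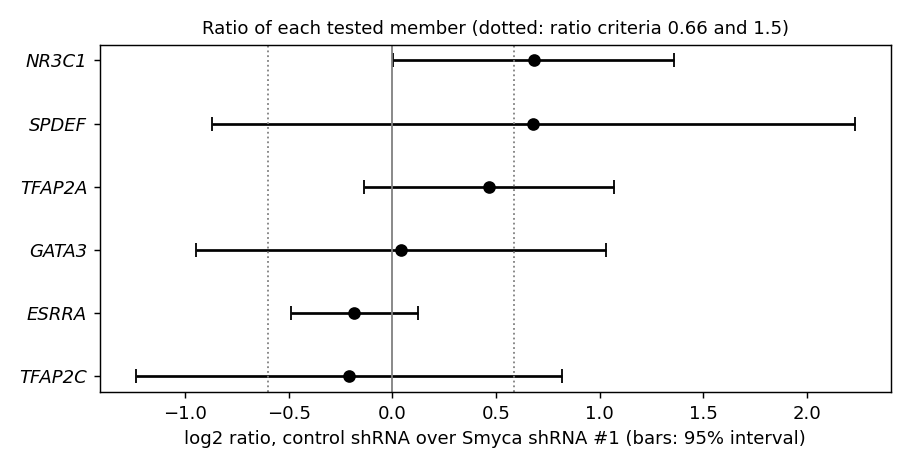
Log2 ratio of control shRNA over Smyca shRNA #1 (horizontal axis) for the 6 tested members; points are the edgeR estimates, bars their 95% intervals, and dotted lines the ratio criteria of 0.66 and 1.5. The intervals of 5 members include 0, and that of NR3C1 begins at 0.006.

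For each tested member the 2 genes with the most similar pattern over the 6 libraries were taken from 9540 genes with at least 10 normalized CPM, by Pearson's r of log2(normalized CPM + 1). These r share the same 6 libraries and are descriptions. SPDEF was most like TSPAN32 (0.990) and S100A10 (0.980). GATA3 was most like LTO1 (0.992) and HOXB5 (0.986), and TFAP2C was most like SIK3 and ARID5B (0.992 each). NR3C1 was nearest to TMSB10 (0.983) and RPL11 (0.982), ESRRA to POM121C (0.987) and UBE2Z (0.976), and TFAP2A to GMDS (0.988) and CHCHD10 (0.985). TFAP2C had 53 genes with an r above 0.95 and TFAP2A had 11.

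Genes around these receptors were counted by list. The counts are set against the shares of all genes: 19.2% had an unadjusted p under 0.05 in edgeR, and 5.55% were DEGs by DESeq2. The share at an unadjusted p under 0.05 moved with the libraries used, and was 11.2%, 13.6% and 29.6% without control library 1, 2 or 3, 15.8%, 10.8% and 19.1% without knockdown library 1, 2 or 3, 20.4% with the recovered reads of control library 2 and 38.2% without both libraries 3. Counts at that p in each setting are read against these shares, so that a fall without control library 1 or knockdown library 2 goes with a fall over all genes. Without control library 3, edgeR called 10.5% of all genes, and without both libraries 3 it called 19.9%, so calls in those settings are read against these shares. Without both libraries 3, edgeR called 8 of 13 glucocorticoid-induced genes, 3 of 16 coregulators, 3 of 13 estrogen-induced genes, 2 of 7 genes of the AP-2 list, 2 of 5 of the GATA list, 3 of 7 of the prolactin pathway, 2 of 6 other luminal factors and 6 of 22 other nuclear receptors. In the same setting it called 7 of 8 hypoxia genes, 4 of 6 mesenchymal markers and 4 of 9 luminal markers. It also called 1 of 2 basal markers and 2 of 3 stromal, immune and endothelial markers. It called 0 of 8 ESRRA-activated genes, 0 of 6 receptor chaperones and 0 of 2 NR3 receptors.

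Glucocorticoid-induced genes were mostly higher in the control: 11 of the 13 tested, with a median log2 ratio of 0.74 against 0.036 for all genes. A DEG among them was DUSP1, a phosphatase that switches off MAP kinases, with 48.9, 32.1 and 33.4 normalized CPM in the control and 9.14, 7.98 and 8.32 in the knockdown libraries (log2 ratio 2.17, adjusted p = 0.0312). Its log2 ratio stayed between 1.95 and 2.28 in the 14 alternatives, but its adjusted p was 0.066 to 0.297 when control library 1 or 2 or any knockdown library was left out. At an unadjusted p under 0.05, 6 of 13 were higher in the control, which became 2 without control library 1 and 4 of 12 with the recovered reads of control library 2. The median was 1.14 without knockdown library 3. The 6 included SGK1, a kinase of ion transport (1.94), DDIT4, an inhibitor of mTOR (2.35), ERRFI1, an inhibitor of EGFR (1.5), and the clock gene PER1 (0.99). A further 2 of the list were lower in the control. FKBP5, a co-chaperone that restrains the glucocorticoid receptor, had 46.2, 68.1 and 45.3 normalized CPM in the control and 85.6, 78.6 and 85.3 in the knockdown libraries (log2 ratio -0.65, adjusted p = 0.139), and CRISPLD2 had a log2 ratio of -0.73.

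Many of these genes also respond to stimuli other than glucocorticoids, and a list of hypoxia-induced genes moved with them. All 8 hypoxia genes were higher in the control (median log2 ratio 1.79), with 6 at an unadjusted p under 0.05, or 4 with the recovered reads of control library 2. DESeq2 called 5 of the 8. Their summed level was 1989, 1034 and 432 normalized CPM in the control and 406, 275 and 378 in the knockdown libraries. The summed level of the glucocorticoid list was 2521, 1631 and 844 against 729, 525 and 714. Both sums were highest in control library 1, and the part of the hypoxia genes in the result was not tested. DESeq2 called 4 of the 13 glucocorticoid genes, of which DUSP1, SGK1 and ERRFI1 were higher in the control and FKBP5 was lower.

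Of 16 coregulators, 14 had a negative log2 ratio, with a median of -0.33, and 7 of them had an unadjusted p under 0.05, all lower in the control. CREBBP, the acetyltransferase CBP, had 108, 92.2 and 119 normalized CPM in the control and 166, 193 and 180 in the knockdown libraries. Its log2 ratio was -0.75 with an adjusted p of 0.111. The others were its relative EP300 (-0.41), the ERR coactivator PPARGC1B (-0.68), the corepressor NRIP1 (-0.63), SAFB (-0.51), the methyltransferase CARM1 (-0.46) and PELP1 (-0.41). None was a DEG in the edgeR fit reported, and DESeq2 called CREBBP only. With no filter beyond 1 count edgeR called CREBBP, without control library 3 it called CREBBP and SAFB, and without both libraries 3 it called CREBBP, PELP1 and PPARGC1B. The 7 with an unadjusted p under 0.05 became 3 without knockdown library 2 and 4 without control library 1 or 2, and the median was -0.22 without knockdown library 3. With the reads of the FPKM column for control library 2, 6 of 16 had an unadjusted p under 0.05, and without both libraries 3 6 were lower and 2 higher. NCOR1, a corepressor of unliganded receptors, had a log2 ratio of -0.27 with an adjusted p of 0.469. The 6 receptor chaperones all had negative values, with a median of -0.26 and FKBP5 past an unadjusted p under 0.05. That count rose to 3 without knockdown library 1 (median -0.41) and with the recovered reads of control library 2 (median -0.43). One chaperone was positive without knockdown library 3 (median -0.20) and without both libraries 3 (median -0.12). DESeq2, and edgeR with no filter beyond 1 count, called FKBP5.

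The genes that ESRRA activates included 8 tested genes, ESRRA among them, and all 8 had a negative log2 ratio with a median of -0.19. Those with an unadjusted p under 0.05 were IDH3A, a subunit of the citric acid cycle enzyme (-0.56), and ACADM, an enzyme of fatty acid oxidation (-0.41). These 2 became 1 without control library 1 or with the recovered reads of control library 2, and 3 without control library 3. Scaling by total counts, which moved the median of all genes to 0.11, left 7 of 8 below 0. No gene of the list was a DEG in edgeR or DESeq2.

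Estrogen-induced genes showed no common direction, with 5 higher and 8 lower in the control among 13 tested. At an unadjusted p under 0.05, RARA (0.43) and CA12 (1.04) were higher in the control while MYB (-0.80), NRIP1 and CCND1 (-0.61) were lower. TFF1, a classical estrogen target, had 17 to 44 counts. The median was -0.26, but 0.11 without control library 1, -0.16 without control library 2, -0.03 without knockdown library 3 and -0.06 with the recovered reads of control library 2. The 2 higher and 3 lower became 0 and 1 without control library 1 or knockdown library 2, and 0 and 2 without control library 2. DESeq2 called 1 of the 13, MYB, as did edgeR with no filter beyond 1 count, while the edgeR fit reported called 0 and edgeR without control library 3 called 3.

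Partners and relatives of the AP-2 and GATA factors were counted next. CITED2, a coactivator of AP-2, had 48.7, 36.7 and 50.8 normalized CPM in the control and 27.4, 22.8 and 29.1 in the knockdown libraries (log2 ratio 0.78, adjusted p = 0.114). The median of the AP-2 list was 0.14, and ranged from 0.02 without control library 3 and 0.07 without control library 2 to 0.33 without control library 1 and 0.34 without knockdown library 1. It was 0.40 with the recovered reads of control library 2, when 2 genes in place of 1 had an unadjusted p under 0.05. TFAP2B had 0 counts. Among 5 tested genes of the GATA list, GATA2 (-0.86, adjusted p = 0.187) and ZFPM1, a GATA cofactor also known as FOG1 (-0.92, adjusted p = 0.126), were lower in the control at an unadjusted p under 0.05. GATA2 had 9.5, 11.9 and 5.12 normalized CPM in the control and 15.3, 17.9 and 15 in the knockdown, and these groups did not overlap. DESeq2 called CITED2 and ZFPM1. Neither list had a DEG in the edgeR fit reported, which filters low counts. With no filter beyond 1 count edgeR called CITED2 and ZFPM1, and CITED2, KCTD15, GATA2 and ZFPM1 were called without both libraries 3.

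Downstream of the undetected PRLR, JAK2, STAT5A and STAT5B were tested and had log2 ratios of 0.60, -0.09 and 0.06, with adjusted p of 0.328 or more. SOCS3, an inhibitor of cytokine signaling, had 30.2, 19.2 and 14.4 normalized CPM in the control and 3.62, 2.53 and 6.01 in the knockdown libraries (log2 ratio 2.39, adjusted p = 0.111). DESeq2 called SOCS3. PRL, GHR and ELF5 of this list had 0 counts in all libraries.

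Of 9 other luminal factors, 7 were tested. FOXA1, the pioneer factor that opens chromatin for ESR1, had at most 2 counts, beside the near absence of ESR1 counts. ELF3, an epithelial ETS factor, had 69.6, 28.7 and 28.3 normalized CPM in the control and 15.5, 13.5 and 18.1 in the knockdown libraries (log2 ratio 1.43, adjusted p = 0.122), and MYB was lower in the control. DESeq2 called both. Among 21 tested nuclear receptors outside the NR3 family, 4 were higher in the control at an unadjusted p under 0.05 and 1 was lower. Among the 4 were the clock repressor NR1D1 (1.01), NR2C1 (0.66) and the retinoic acid receptor RARA, and the lower one was NR2F2 (-0.50). DESeq2 called NR1D1, and so did edgeR with no filter beyond 1 count, while the edgeR fit reported called 0 of the 21 and edgeR without control library 3 called 2 of 22. The 4 became 1 without control library 1 or knockdown library 2 and 8 without control library 3.

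Markers of cell state moved beside these results. All 6 mesenchymal markers were higher in the control, with a median log2 ratio of 0.82, and 4 of them had an unadjusted p under 0.05, or 2 without control library 1, knockdown library 1 or knockdown library 2. The shared direction depended on the libraries, with 4 higher and 2 lower without control library 1. It was 5 and 1 without control library 2 or knockdown library 1 or 2. The recovered reads of control library 2, or the replicate number as a block, also gave 5 and 1. DESeq2 called VIM among the 6 markers. Of the 9 luminal markers 5 were higher, with a median of 0.03, and DESeq2 called AGR2. MUC1 had the lowest log2 ratio of them, -1.30, with an adjusted p of 0.275, and edgeR called it lower in the control with no filter beyond 1 count and without both libraries 3. KRT17, a basal keratin, was called by DESeq2 as well. Of the 4 basal markers 2 were tested, and the other, KRT5, had a log2 ratio of 0.05. KRT5 had 1.95, 3.82 and 0.717 normalized CPM per kilobase in the control and 1.87, 4.12 and 0.269 in the knockdown libraries. KRT14 and TP63 did not exceed 0.270 and 0.0627 per kilobase. VIM had 305, 200 and 148 normalized CPM in the control and 71.2, 105 and 130 in the knockdown libraries (log2 ratio 1.09, adjusted p = 0.131), and KRT8 had a log2 ratio of -0.47 (adjusted p = 0.201). The summed mesenchymal markers ranged from 584 to 1274 in the control and from 639 to 973 in the knockdown, and the summed luminal markers from 7172 to 8538 and from 7821 to 10493. Of 8 stromal, immune and endothelial markers, 3 were tested, with a median log2 ratio of 0.65, or -0.31 with the recovered reads of control library 2, and their sum did not exceed 13.3 in any library. The part of these markers in the receptor values was not tested.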

How the data were processed

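RNA was sequenced from 3 libraries of MDA-MB-231 cells with control shRNA and 3 with Smyca shRNA #1, grouped by the sample labels. The authors removed rRNA, made strand-specific libraries, mapped paired reads to GRCh38 with TopHat2 2.0.12 and ran HTSeq for the counts per gene; its strand setting and annotation release are not given in the sources used here. The authors deposited raw read counts of 58302 Ensembl genes and an FPKM value per gene. FPKM served for gene lengths and for the check of control library 2, in which 100% of values up to 1000 reads came out whole within 0.05 of a read. The reads recovered in that check also replaced the counts of control library 2 in an alternative fit.

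Symbols came from GENCODE 44, which matched 57532 genes. The counts were tested in R 4.3.3 with edgeR 4.0.16 (TMM, filterByExpr, quasi-likelihood test, Benjamini-Hochberg adjustment over 15075 genes). The biological coefficient of variation was 25.2%. Intervals are 95% intervals of the fit. The code was checked on simulated counts. DESeq2 1.42.0, other scalings and filters, and libraries left out were alternatives. The members and the gene lists were chosen with earlier results of these data known. Named genes were all members, genes of the lists that were called, had an unadjusted p under 0.05 or were extreme, genes overlapping a member, the 2 most similar genes of each member, and the targeted gene; NCOR1, JAK2, STAT5A, STAT5B, TFF1, EPCAM, CDH1 and ZEB1, and listed genes named for low or 0 counts, were named outside that rule for their known roles, after the values were seen. No set test was run. Some listed genes are not reported here.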

Additional observations from a re-analysis of the deposited data

How the results depend on the processing

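The number of members called was 0 in every alternative that used the adjusted p and 1 at an unadjusted p under 0.05. Of 84 member values under 14 alternatives each, 78 kept their direction and 0 passed the threshold. The 6 that reversed were GATA3, which ranged from -0.33 to 0.29 with a library left out in turn, at -0.10 without control library 3, -0.33 without knockdown library 3 and -0.46 without both, and TFAP2C, which ranged from -0.44 to 0.34, at 0.02, 0.34 and 0.57 under the same settings; in every one of them a library 3 was left out. Leaving out both was added after seeing the data, as were the list counts under every alternative and the check of group overlap under other scalings, which left 3 members without overlap. NR3C1 ranged from 0.54 to 0.86 with adjusted p of 0.123 to 0.584, and SPDEF from 0.17 to 1.21 with adjusted p of 0.103 to 0.919.

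The number of DEGs over all genes depended far more on the setting. It was 4 in the fit reported and 8 with total counts and no composition factor, 916 of 30409 genes with no filter beyond 1 count, 836 with DESeq2, 10 with recovered FPKM reads for control library 2, and 3036 with both libraries 3 left out. Leaving out each library in turn gave 0 to 1628, with 1628 without control library 3, 0 without control library 1 or knockdown library 1 or 2, and 2 without control library 2 or knockdown library 3. An unadjusted p under 0.05, with no limit on the ratio, was reached by 2893 genes, which are not DEGs by the definition used. DUSP1 was not called with the replicate block, at an adjusted p of 0.131. The cause was not tested.

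The labels give both groups the same replicate numbers. Deviations of same-numbered libraries correlated at -0.01 to 0.08, and those of libraries with other numbers at -0.18 to 0.08. Deviations within a group of 3 are bound to sum to 0, so these values cannot exclude pairs. The numbers were not taken as pairs in the fit reported. The fit with the replicate number as a block gave 0 DEGs over all genes and 0 among the members, with log2 ratios of 0.66 for NR3C1 and 0.87 for SPDEF. The member at an unadjusted p under 0.05 was then SPDEF, at 0.033 in edgeR, and NR3C1 was at 0.080. The depth limits what can be said of ESR1, PGR and PRLR, and of TFAP2C and GATA3, whose libraries held 19 to 65 counts.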
